A study of Homo sapiens with 17 samples.

Results

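Outside protein-coding and lncRNA genes, 1515 autosomal regions carried trimethylation of lysine 36 on histone H3 (H3K36me3) in HCC1954, a line of HER2-positive breast cancer cells. They were chosen by H3K36me3 peaks alone, by merging overlapping or touching ones of 4 peak lists and keeping regions with a peak in at least 2 lists that shared no base with a RefSeq protein-coding or lncRNA gene. They made up 3.13% of the 48407 merged regions present in at least 2 lists, and the other 46892 of these overlapped such a gene. The lists came from chromatin immunoprecipitation and sequencing (ChIP-seq) of cells transfected with antisense oligonucleotides and fixed after 72 hours. The labels name 2 arms, NC1235 and Si1235, in a series on the long non-coding RNA LINC01235, and leave NC and Si unexplained. Each arm had 2 libraries of H3K36me3, 2 of H3K27ac, 2 of the histone variant H2AZ and 1 of H3K9ac. A further library, made by chromatin isolation with RNA purification (ChIRP), carries the NC1235 name, and the RNA it captured is not named in the labels. All libraries came from this 1 cell line. Since no label calls the replicates separate cultures, every p-value measures only how far these libraries spread, and that spread may be technical.

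H3K36me3 is placed by the methyltransferase SETD2, which travels with elongating RNA polymerase II, so the mark normally lies along the bodies of transcribed genes and grows toward their 3′ ends. Polymerase continues past the cleavage and polyadenylation site before it leaves the template, which can carry the mark beyond an annotated gene end. H2AZ and the acetyl marks H3K27ac and H3K9ac lie instead at active promoters and enhancers, so their position beside an H3K36me3 region tells whether a start-site type of chromatin is close by.

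The promoters of 4 neighbours of these regions are shown as examples, and whether their sequence bears on the regions was not tested. Neighbours differ, since the promoter of ACP4, another gene with a region past its 3′ end, had no peak in any list. The promoter sequences, from 250 bases before to 50 bases after the gene start, are from RefSeq (GRCh38.p14) and are written 5′ to 3′ on the gene's strand. H2AC6 and H2BC11 are histone genes with a region past their 3′ end and no H3K36me3 of their own, CAPN1 is a calpain protease gene with a region past its 3′ end and a marked body, and MZT2A, a spindle organizer gene, has a region before its start. Capitals mark matches, on either strand and with overlaps allowed, to the CCAAT box CCAAT, the GC box GGGCGG, the TATA box TATAAA and the ETS motif CCGGAAGT, which occur in 34.4, 45.0, 11.6 and 4.19% of 33725 autosomal promoters of this length.
H2AC6, chr6:26123922-26124221, plus strand: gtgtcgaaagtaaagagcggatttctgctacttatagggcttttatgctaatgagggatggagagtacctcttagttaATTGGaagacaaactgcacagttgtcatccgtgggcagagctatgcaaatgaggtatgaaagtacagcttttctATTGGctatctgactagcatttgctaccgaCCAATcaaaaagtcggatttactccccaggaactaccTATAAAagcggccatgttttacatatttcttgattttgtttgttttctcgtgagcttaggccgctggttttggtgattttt
H2BC11, chr6:27132746-27133045, minus strand: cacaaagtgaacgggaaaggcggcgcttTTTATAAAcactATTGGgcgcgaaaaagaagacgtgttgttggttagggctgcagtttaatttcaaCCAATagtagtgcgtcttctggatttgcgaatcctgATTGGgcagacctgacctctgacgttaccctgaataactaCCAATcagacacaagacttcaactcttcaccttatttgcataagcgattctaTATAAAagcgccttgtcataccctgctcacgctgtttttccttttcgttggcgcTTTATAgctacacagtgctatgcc
CAPN1, chr11:65181678-65181977, plus strand: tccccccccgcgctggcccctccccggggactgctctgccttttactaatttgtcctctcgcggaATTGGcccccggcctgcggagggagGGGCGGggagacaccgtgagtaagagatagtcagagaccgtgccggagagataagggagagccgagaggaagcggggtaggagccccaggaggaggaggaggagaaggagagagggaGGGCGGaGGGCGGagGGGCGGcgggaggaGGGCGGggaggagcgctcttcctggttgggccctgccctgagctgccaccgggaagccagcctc
MZT2A, chr2:131492348-131492647, minus strand: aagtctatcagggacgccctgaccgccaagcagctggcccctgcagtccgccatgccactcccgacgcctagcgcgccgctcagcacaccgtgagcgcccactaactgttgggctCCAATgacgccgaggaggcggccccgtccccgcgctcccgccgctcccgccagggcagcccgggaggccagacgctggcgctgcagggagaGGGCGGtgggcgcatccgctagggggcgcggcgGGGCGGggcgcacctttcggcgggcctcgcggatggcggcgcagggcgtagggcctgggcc
The H2AC6 promoter held 3 CCAAT and 1 TATA match and the H2BC11 promoter 4 of each, with 41.0 and 44.3% GC, while the CAPN1 and MZT2A promoters held 5 and 2 GC boxes and had 69.0 and 75.7% GC. H3K27ac peaks covered all 300 bases of each of these 4 promoters in all 4 H3K27ac libraries. H2AZ peaks covered the MZT2A window wholly in all 4 H2AZ libraries and the CAPN1 window wholly in 3 and to 26% in Si1235 replicate 2, and were absent from both histone promoters. No H3K36me3 peak entered any of the 4 windows.

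Only 5 of the regions held an annotated microRNA gene, and their mature forms are given because no host gene of the rule's kinds overlapped them. Sequences are from RefSeq and capitals mark the seed, bases 2 to 8.
hsa-miR-573, in chr4:24519235-24520481: cUGAAGUGauguguaacugaucag
hsa-miR-602, in chr9:137837903-137838694: gACACGGGcgacagcugcggccc
hsa-miR-331-5p, in chr12:95308274-95309520: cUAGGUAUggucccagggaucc
hsa-miR-331-3p, in the same region: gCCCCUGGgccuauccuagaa
hsa-miR-4315, in chr17:64820135-64825473: cCGCUUUCugagcuggac
hsa-miR-6817-3p, in chr22:25453284-25462629: uCUCUCUGacuccauggca
No seed was shared among these 6 mature sequences. The MIR573, MIR4315-2 and MIR6817 regions had a peak in all 4 H3K36me3 lists, the MIR331 region in 3 and the MIR602 region in 2.

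The regions were fewer and smaller than those over genes. Their median width was 937 bp against 1519 bp, and 36 of them (2.38%) exceeded 5 kb against 17.97% of genic regions. A peak was present in all 4 lists in 536 (35.4%), in 3 lists in 384 and in 2 lists in 595, whereas 57.2% of genic regions were present in all 4. Within each list, peaks were ranked by the fold enrichment that the authors' peak caller gave. The median percentile of peaks in the regions was 46.7 and 41.9 in NC1235 replicates 1 and 2, and 47.2 and 42.0 in the Si1235 libraries, below the 55.1, 53.0, 55.9 and 53.7 of peaks over genes. Another 1637 regions outside genes had a peak in 1 list alone, with a median width of 327 bp, and were not kept. At the edge of the gene criterion, 52 regions lay 100 bp or less from a gene, and 60 regions that overlapped a gene by 100 bp or less were left out. Widths and list numbers are values of the lists that chose the regions and are given as a description.

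In the H3K36me3 lists, gene bodies of the epithelial and HER2 markers ERBB2 (57.4% covered by peaks, mean of 4 libraries), EPCAM (75.99%), KRT18 (69.8%) and CDH1 (69.1%) were marked, and 7 of 9 such markers had a peak, with KRT19 and KRT14 at 0. The 3 immune and 4 fibroblast markers, PGR and VWF had none, and ESR1 had 0.795%, while PECAM1, an endothelial marker, had 17.3% and CDH5 had peaks in the Si1235 lists alone. Read depth is not given in the lists. The local background solved from the 1500 weakest peaks of each H3K36me3 list was 2.33 and 1.65 reads in NC1235 replicates 1 and 2 and 1.90 and 0.788 in Si1235, so replicate 2 was lower in each arm. A peak list of bulk chromatin cannot tell fewer marked cells from a weaker mark in every cell.

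By annotation the regions fell into 2 main kinds. No RefSeq gene of any type overlapped 1056 of them (69.7%), and 415 (27.4%) overlapped a transcribed pseudogene, a copy of a gene that has lost its coding function but has RNA evidence. The remaining 44 overlapped annotated features of other types. The pseudogene regions were present in all 4 lists more often, at 46.5% against 30.7% of those without any gene, and they held 41.1% of the covered length. They also lay farther from genes, with a median gap of 16584 bp to the nearest protein-coding or lncRNA gene against 2192.5 bp.

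The regions were concentrated just past gene 3′ ends. The median gap to the nearest gene was 3667 bp and the longest 155577 bp. The nearest gene end was a 3′ end within 10 kb for 732 regions (48.3%) and a 5′ end within 10 kb for 117 (7.72%). A gene within 10 kb had no strand in the reference table for 221 (14.6%), 365 (24.1%) lay 10 to 50 kb from any gene and 80 (5.28%) lay farther. Each class was set against the length of intergenic sequence in it. The density was 6.38 regions per Mb in the 3′ class, 1.17 in the 5′ class, 2.37 near genes without strand, 0.816 at 10 to 50 kb and 0.144 beyond 50 kb, where assembly gaps were not removed from the length. Among the 1056 regions without any RefSeq gene the 3′ share was higher, at 649 regions (61.5%) and 5.66 per Mb, against 75 (7.10%) and 0.753 per Mb for the 5′ class. With peaks under 1 kb apart joined, 672 regions outside genes were left, and their position classes were not counted. Whether regions past 3′ ends are pieces of longer marked stretches over genes was not tested.

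**Figure D1:**
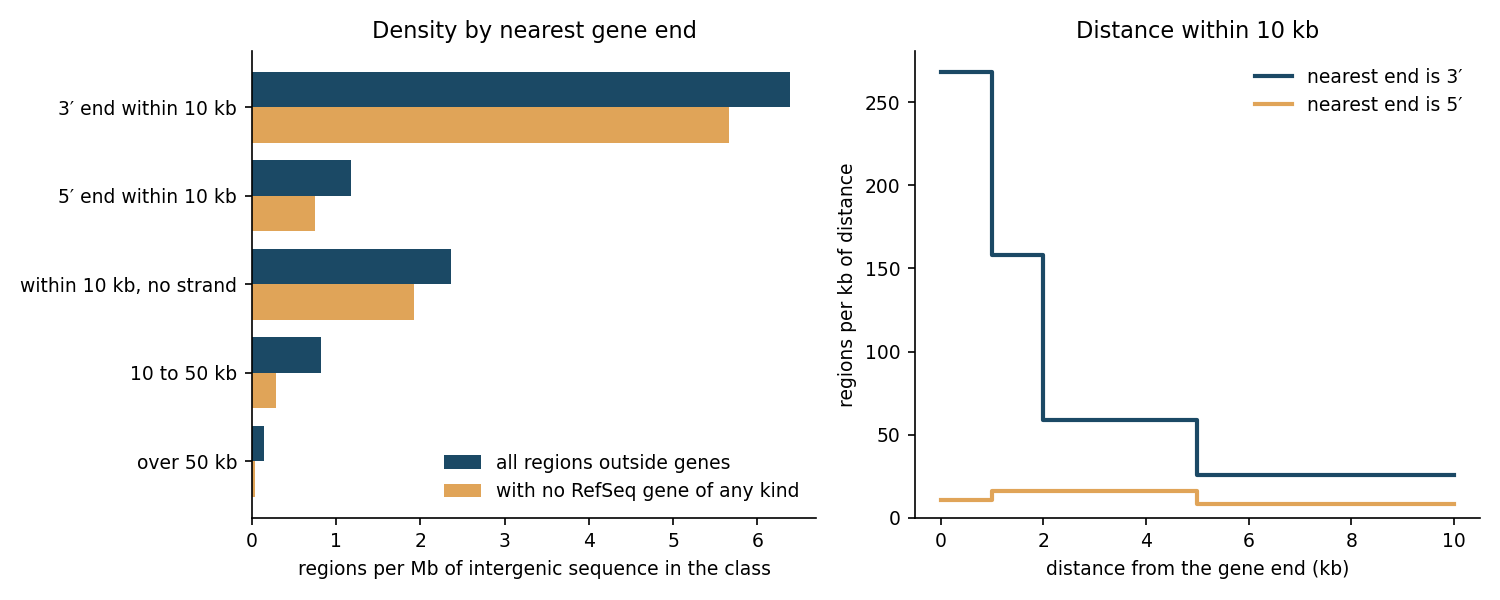
Left, regions per Mb of intergenic sequence (x axis) in 5 classes by nearest gene end, for all 1515 regions (dark bars) and for the 1056 without any RefSeq gene (light bars). Right, regions per kb of distance (y axis) against distance from the gene end in kb. The 3′ line starts at 268 regions in the first kb and falls, while the 5′ line stays low throughout.

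Distance to the 3′ end showed a steep fall. Past 3′ ends, 268 regions started within the first kb, 158 between 1 and 2 kb, 176 between 2 and 5 kb and 130 between 5 and 10 kb. Before 5′ ends the same steps held 11, 16, 49 and 41 regions. Of the 3′ regions, 91.3% belonged to protein-coding genes, 524 in number, and for those genes the far edge of the last such region lay a median of 2638 bp past the gene end (interquartile range 1459 to 4509 bp). A region that ran across a gene end was counted as genic, and regions that began over 10 kb away were in other classes. The far edge is therefore no measure of how far the mark extends past these genes. There were 104 coding genes with 2 or more such regions, and 4 was the most for any gene. The gene on the other side of the 3′ regions also ended toward the region in 301 cases (41.1%), started toward it in 261 (35.7%) and had no strand in 170.

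Most genes before these 3′ regions were marked themselves. Of the 524 coding genes, 468 (89.3%) overlapped an H3K36me3 region present in at least 2 lists, and the median share of the gene covered by peaks was 35.9%. The 53 coding genes of the 5′ class had such a region in 60.4% and a median cover of 6.47%, and all 19126 autosomal coding genes had 51.4% and 0.896%. A genic H3K36me3 region lay within 5 kb of 82.3% of the coding 3′ regions, at a median gap of 1218 bp, and of 36.5% of the coding 5′ regions, at 7859.5 bp. Coding genes with a strand and at least 10 kb long were also divided into their first and last 5 kb. In the 431 such 3′ neighbours the last 5 kb had a median cover of 72.3 and 55.5% in NC1235 replicates 1 and 2 and of 61.6 and 57.2% in Si1235, and the first 5 kb 0% in both NC1235 libraries and 4.84 and 1.80% in Si1235. The last stretch had more cover than the first in 385 of the 431 (89.3%), against 47.6% of all coding genes. With at least 20% of the body covered, it did so in 288 of 306 such neighbours (94.1%) and 85.8% of other coding genes. Among genes with at least 20% of their body covered, the last 5 kb had a median of 75.4% (mean of 4 libraries) in 306 such neighbours and 74.0% in 3666 other genes. These values are a description, since the regions and the gene cover come from the same lists.

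**Figure D2:**
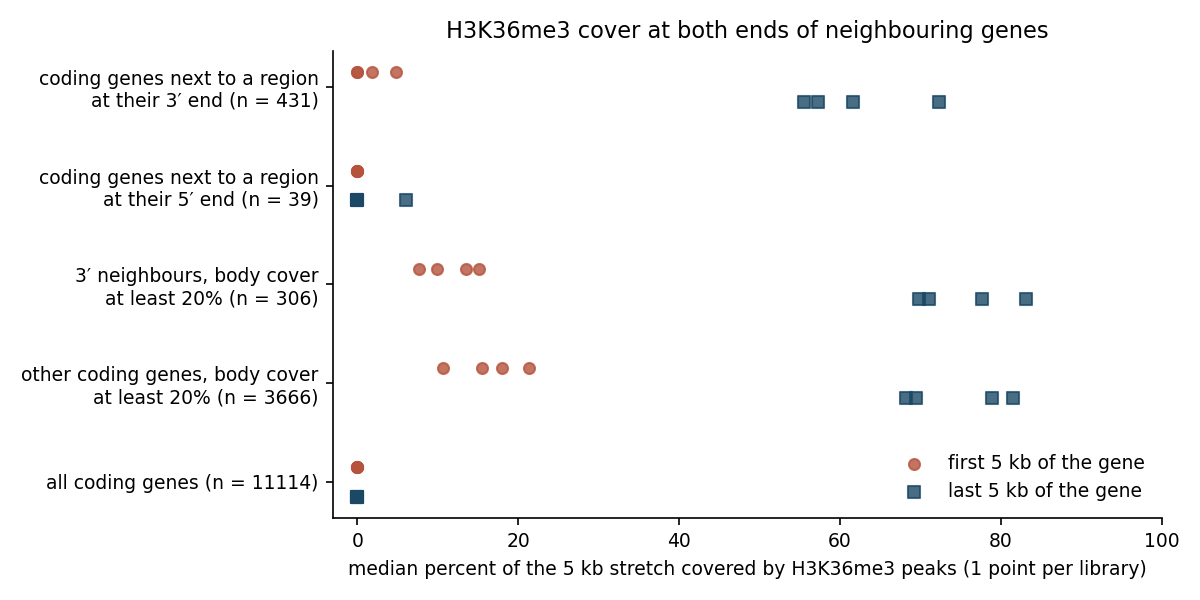
Median percent of the first (circles) and last (squares) 5 kb of coding genes covered by H3K36me3 peaks, 1 point for each of the 4 libraries. Genes with a region past their 3′ end have squares between 55.5 and 72.3%, above their circles at 0 to 4.84%.

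Among regions with a known 3′ end within 10 kb, the one of greatest cover lay beside histone genes. Replication-dependent histone genes make short, intronless mRNAs that normally end in a stem-loop and not in a poly(A) tail. At chr6:26126553-26141129, 1862 bp past the 3′ end of H2AC6 and 15199 bp before the start of H1-4, peaks covered 12426 and 12228 bp in NC1235 and 13388 and 13809 bp in Si1235. No RefSeq gene of any type lay in these 14577 bp, and no H3K36me3 peak lay in H2AC6. H3K27ac peaks overlapped the region in all 4 libraries and covered between 23.9 and 26.3% of it and 5 kb on each side. Both Si1235 libraries were above both NC1235 libraries, by 8.72 points of cover (SE 5.40, limma adjusted p = 0.599). That p-value is a description, since the same lists chose the region. A second region, chr6:27122450-27126608, began 5707 bp past the 3′ end of H2BC11, with 4154 and 3087 bp covered in NC1235 and 3028 and 3690 bp in Si1235. Its arms overlapped, and H2BC11 had no peak either. Of 66 histone genes in the table, 17 (25.8%) had a region within 10 kb, against 5.52% of all 19126 coding genes, but the histone genes are clustered and shared 10 regions. All 10 lay on chromosome 6 and had no RefSeq gene, and 2 were in all 4 lists. Only 8 of the 66 histone genes overlapped an H3K36me3 peak in any list.

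Other long 3′ regions followed marked genes or lay in a pseudogene. At chr11:65220299-65230833, 8292 bp past CAPN1, whose body was 91.7% covered, peaks covered 10018 and 9113 bp in NC1235 and 9895 and 8542 bp in Si1235. That region lies in SLC22A20P, a pseudogene of an organic anion transporter. At chr19:50796100-50802977, 880 bp past ACP4, the region overlapped C19orf48P with the small nucleolar RNA genes SNORD88A, SNORD88B and SNORD88C, which guide chemical modification of ribosomal RNA. It had the highest mean percentile of fold enrichment among the 536 regions with a peak in all 4 lists, 98.5, with 6388, 5938, 6428 and 6494 bp covered in NC1235 replicates 1 and 2 and Si1235 replicates 1 and 2. A region in SUZ12P1, a pseudogene of the Polycomb subunit gene SUZ12, lay at chr17:30766774-30773179, 9504 bp past CRLF3. Its cover was 6406 and 4590 bp in NC1235 and 4259 and 4555 bp in Si1235, so 1 NC1235 library stood above the other 3.

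Before gene starts the longest regions were mostly pseudogenes. SMPD4BP, related to a sphingomyelinase gene, held chr2:131497950-131510576, 4195 bp before MZT2A, with 12350, 11247, 12052 and 10700 bp covered in the same order. CRYBB2P1, a crystallin pseudogene, held chr22:25453284-25462629 with MIR6817, and CLUHP3 held chr16:31702688-31708738. The exception was chr18:3353412-3358733, 2852 bp before LINC01895, which had no RefSeq gene and 5043 and 3460 bp covered in NC1235 and 5272 and 4987 bp in Si1235.

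Transcribed pseudogenes with a region often carried promoter marks at an end. Of 1197 autosomal transcribed pseudogenes, 971 were not wholly inside a coding or lncRNA gene, 112 of those carried a region and 78 carried one present in all 4 lists. An H3K27ac peak lay within 1 kb of an end in 76.8% of the 112, an H2AZ peak in 74.1% and an H3K9ac peak in 77.7%. The 859 that carried none had 18.5, 22.4 and 20.02%, and were shorter, with a median span of 11299 bp against 28486 bp. Peaks at the start of an adjacent gene are counted too and were not set apart from those of the pseudogene. In ZNF767P, a zinc finger pseudogene at chr7:149547154-149624790, which held 15 regions, all H3K36me3 peaks together covered 52.1 and 38.2% of the span in NC1235 against 54.7 and 41.7% in Si1235, and all promoter mark lists had a peak at the end of higher coordinate only. PDPR2P held 12 regions, and all H3K36me3 peaks together covered 66.3, 41.3, 61.1 and 44.4% of its span. SUZ12P1 held 13 regions with 29160, 14650, 24963 and 20667 bp covered, and all peaks together covered 50.3, 30.9, 46.2 and 37.1% of its span, of which 10147 bp overlap a coding or lncRNA gene. In these 3 pseudogenes each replicate 1 library was above each replicate 2 library, and the arms overlapped.

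The 8 regions of greatest cover included 6 in pseudogenes. The first of these, chr17:64748451-64765913 in BPTFP1, a pseudogene of a chromatin remodelling subunit gene, had 17298, 14857, 16800 and 15469 bp covered and lay 78482 bp from the nearest gene. AFG3L1P, a relative of mitochondrial protease genes, held chr16:89977143-89994666 with 17465, 15379, 16926 and 14513 bp, and STAG3L4, a relative of a cohesin subunit gene, chr7:67304449-67321588 with 16374, 11034, 15547 and 14252 bp. LRP5L, a relative of the Wnt co-receptor gene LRP5, held chr22:25346467-25361495, with 13878, 10808, 14615 and 11029 bp. Reads from a pseudogene and its parent gene can be near-identical, and the treatment of multiply mapped reads is not known here, so the pseudogene values are uncertain. For 57 of the 112 the symbol named a parent gene, and the parent's H3K36me3 cover was above that of the pseudogene in 40, with medians of 42.3 and 10.3%. SUZ12 had 48.8% against 41.1% for SUZ12P1, SDHA, a subunit of succinate dehydrogenase, 55.0% against 24.1% for SDHAP1, and CRYBB2 0% against 58.8% for CRYBB2P1.

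**Figure D3:**
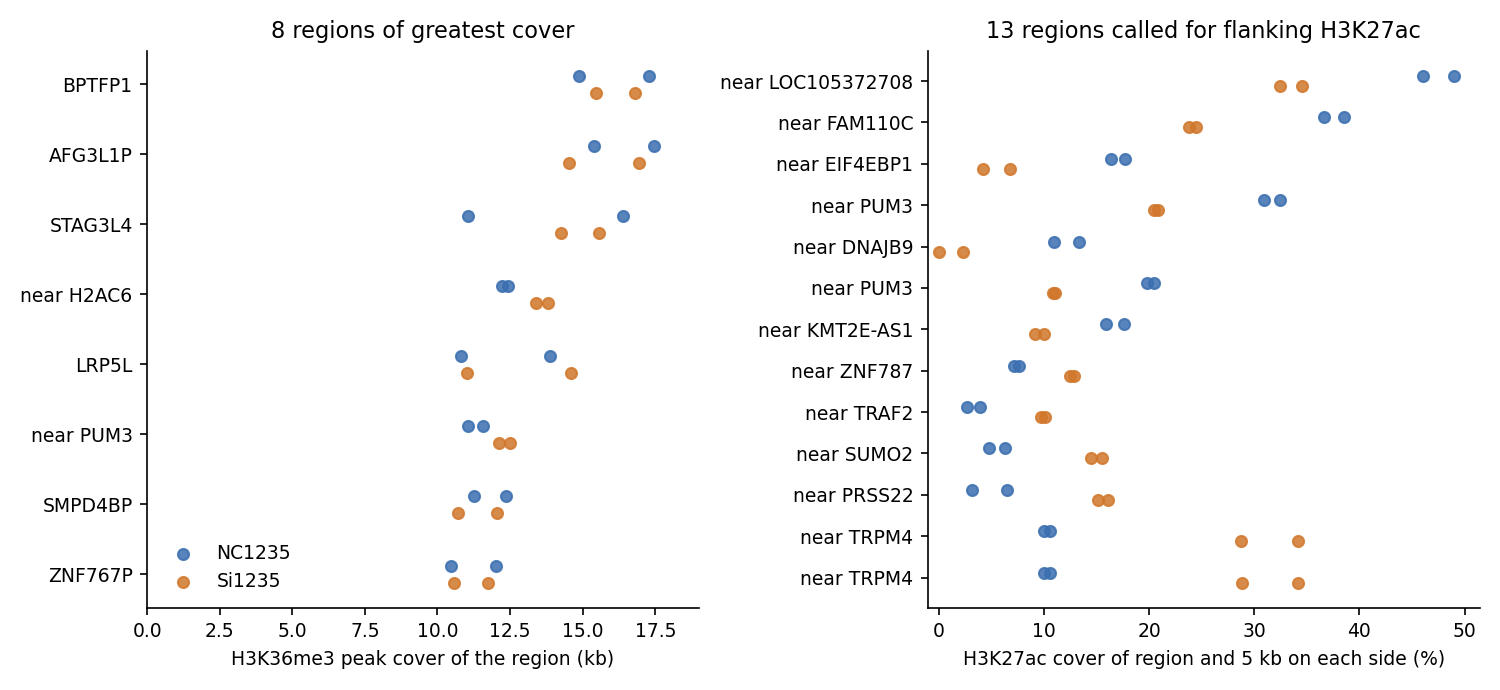
Left, H3K36me3 peak cover in kb of the 8 regions of greatest cover, named by the pseudogene they lie in or the nearest gene, 1 point per library coloured by arm. Right, percent of a region and 5 kb on each side covered by H3K27ac peaks for the 13 regions called between arms, where the arms do not overlap in any of the 13.

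Regions often lay in rows. Joining regions less than 10 kb apart with no gene between them gave 843 units, of which 256 held 2 or more regions and together 928 of the 1515. The richest had 27 regions, and 53 units held 5 or more. By cover the leading unit was the BPTFP1 and PLEKHM1P1 stretch of chr17:64748451-64834842 with 17 regions, followed by ZNF767P, PDPR2P, SUZ12P1 and LRP5L. No RefSeq gene of any type lay in the regions of 159 of the 256.

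The unit of greatest cover without any RefSeq gene lay between KCNV2, a potassium channel subunit gene, and PUM3, which encodes an RNA-binding protein of the Puf family. It spanned chr9:2744743-2785690 with 8 regions, and 18461, 16292, 18462 and 17221 bp were covered in NC1235 replicates 1 and 2 and Si1235 replicates 1 and 2. Its nearest gene end was that of KCNV2, 14705 bp away, and the 3′ end of PUM3, a gene with 85.6% of its body covered, lay 18461 bp away. H3K27ac and H3K9ac peaks overlapped the unit in every library of those marks, while H2AZ peaks lay 16578 to 57579 bp away. Another unit, named after its values were seen, chr7:128533626-128597073 between METTL2B and LINC01000, held 21 regions with 18095, 9387, 18633 and 10237 bp covered. H3K9ac peaks overlapped it in both libraries, and H3K27ac peaks lay at most 232 bp away in all 4.

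In several further units without a RefSeq gene, named here after their values were seen, both Si1235 libraries were above both NC1235 libraries. At chr2:71891600-71927801, 85109 bp from the nearest gene, 9 regions had 7252 and 5240 bp covered in NC1235 and 12445 and 12038 bp in Si1235. At chr1:207835445-207867790, between MIR29B2CHG and CD34, 10 regions had 7732 and 5694 bp against 12403 and 9738 bp. At chr6:12299661-12309400, past the 3′ end of the endothelin gene EDN1, 3 regions had 2607 and 1923 bp against 6995 and 6116 bp. The same order held at chr19:27729464-27746902, with 2338 and 2450 bp against 9312 and 5355 bp. It also held at chr17:79759529-79768245, with 5304 and 3319 bp against 7285 and 7545 bp. At chr1:205703973-205711215 the values were 4154 and 3397 bp against 4213 and 4194 bp. An H3K27ac peak overlapped the first and the second unit in all 4 H3K27ac libraries. The nearest H3K27ac peak lay 43929 to 44392 bp from the chr19 unit and 12231 to 12457 bp from the chr1:205703973-205711215 unit. Non-overlapping arms with the higher values in Si1235 occurred in 20.8% of all 48407 merged regions, so such values are common in these lists. That share counts single regions, and the share among units is not given.

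Promoter marks lay beside a minority of the regions and were most frequent in the 5′ class. An H3K27ac peak lay within 5 kb in at least 2 lists for 29.4% of the regions and 32.1% of genic regions, an H2AZ peak for 20.1 and 20.3%, and an H3K9ac peak in both lists for 28.5 and 32.0%. By library the H3K27ac share of the regions ran from 27.99 to 28.8%, at 28.8 and 28.6% in NC1235 against 28.3 and 27.99% in Si1235. In the 5′ class the 3 marks reached 57.3, 40.2 and 54.7%, in the 3′ class 29.1, 19.3 and 26.9%, in pseudogene regions 21.5, 17.8 and 24.3%, and beyond 50 kb 26.3, 16.3 and 26.3%. The 5′ class was the highest of these in each library of each mark, with H3K27ac at 53.8 and 55.6% in NC1235 and 54.7 and 55.6% in Si1235. This class is defined by a gene start within 10 kb, at a median gap of 3537 bp. Its rank for promoter marks is therefore partly set by that definition. Counting a mark only where at least 2 of its lists had a peak, none lay within 5 kb of 1020 regions (67.3%), and all 3 did for 284 (18.7%).

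**Figure D4:**
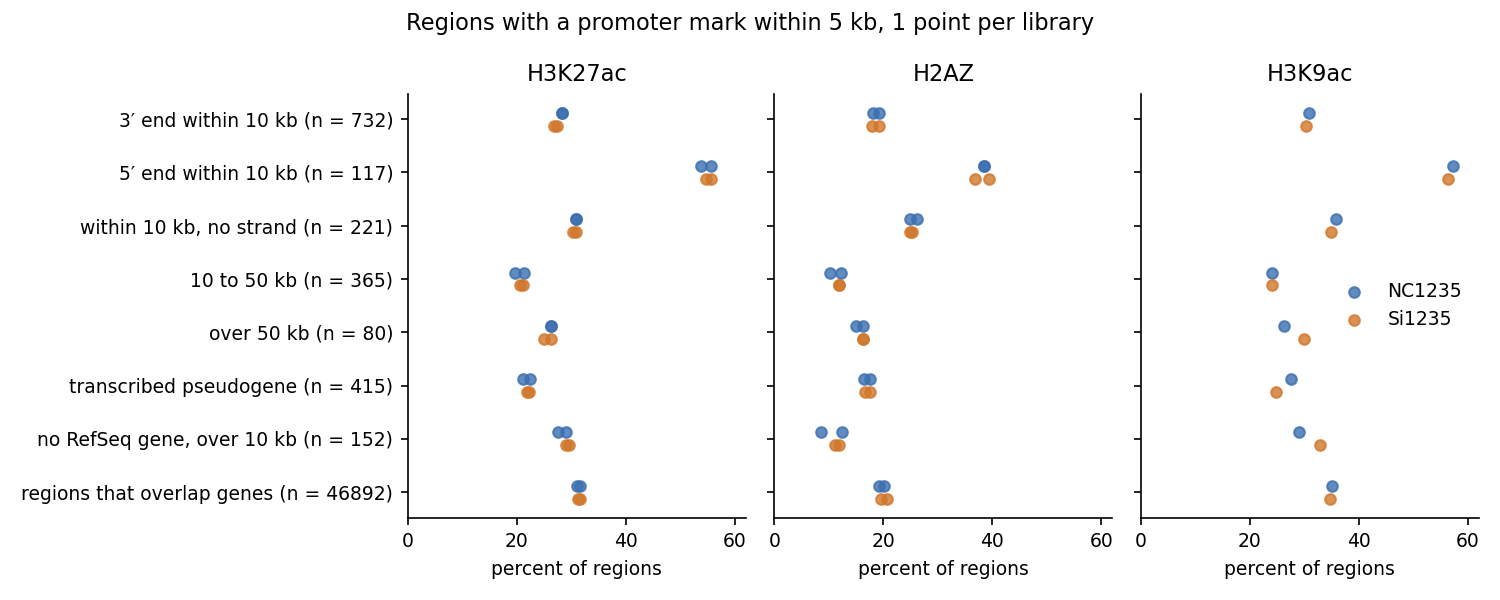
Percent of regions (x axis) with an H3K27ac, H2AZ or H3K9ac peak within 5 kb, by class of region, 1 point per library coloured by arm. The 5′ class stands highest in each panel, with H3K27ac between 53.8 and 55.6% in the 4 libraries.

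The regions were seldom under a promoter mark themselves. An H3K27ac peak overlapped 3.83% of them in at least 2 lists, against 7.28% of genic regions. An H3K9ac peak overlapped 4.03% in both lists, against 8.25% of genic regions. No region was overlapped by H2AZ in 2 lists, and this was rare in genic regions too, at 0.264%. ChIRP peaks overlapped 6.67% of the regions against 16.2% of genic regions. Genic regions are wider, which raises such shares, and the part of width in these differences was not tested. A set of 152 regions overlapped no RefSeq gene of any type and lay over 10 kb from protein-coding and lncRNA genes. Their distance to pseudogenes and other annotated features was not measured. Of these, 30.9% had H3K27ac, 11.8% H2AZ and 26.97% H3K9ac within 5 kb in at least 2 lists. By that criterion 18 had all 3 marks, while 105 had none.

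The arms were compared first by how many of the regions had a peak. The Si1235 lists were longer, with 72793 and 79162 autosomal H3K36me3 peaks against 65432 and 69165 in NC1235. The 2 NC1235 libraries had 1195 and 895 and the 2 Si1235 libraries 1301 and 1095, or 1045 ± 212 and 1198 ± 146 (SD, n = 2). The log2 ratio of Si1235 to NC1235 was 0.20, and 0.12 within replicate 1 and 0.29 within replicate 2. With the same number of top peaks taken from each list it was 0.07. No test is given, because the same lists chose the regions. The covered length was 1380 and 856 kb in NC1235 and 1441 and 1047 kb in Si1235, a log2 ratio of 0.15 (0.06 and 0.29 within replicates, and 0.09 with equal numbers of top peaks). It turned to −0.15 without NC1235 replicate 2 and to −0.09 without Si1235 replicate 1. Replicate 1 exceeded replicate 2 in each arm for both measures, as did the solved background level, and its part in the values was not tested. Over genic regions the corresponding log2 ratios were 0.07 for number and 0.01 for length. By position class the arms overlapped in the number of regions, or met at 86 in the 5′ class, with 558 and 429 regions in NC1235 and 605 and 534 in Si1235 in the 3′ class.

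**Figure D5:**
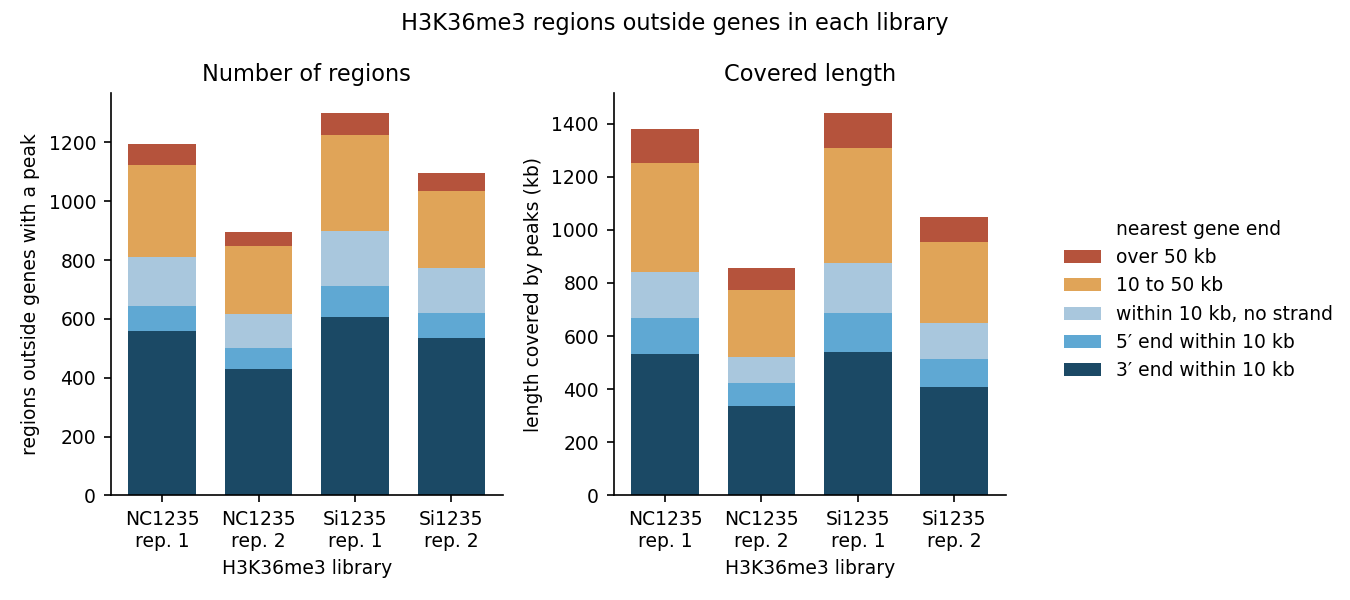
Number of regions with a peak (left) and length in kb covered by peaks (right) in the 4 H3K36me3 libraries, stacked by class of nearest gene end. Replicate 1 stands above replicate 2 in each arm, and the 3′ class is the largest block in each bar.

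Presence by arm was then read from the lists each region appeared in. A peak in both Si1235 lists and neither NC1235 list occurred in 177 regions (11.7%) against 7.34% of all 48407 regions, and the reverse in 72 (4.75%) against 4.55%. With equal numbers of top peaks per list these counts were 109 and 87. A pair that crosses the arms was as frequent, with 174 regions (11.5%) in both replicate 1 lists alone against 6.23% of all, and 31 (2.05%) in both replicate 2 lists alone against 1.46%. The Si1235-only regions with the strongest weaker peak by the authors' q-value were chr8:81727455-81728695, 3752 bp from the ESCRT gene CHMP4C, chr8:119248185-119249128, 1327 bp from MAL2-AS1, and chr11:69299133-69300293, 1845 bp from MYEOV. The last lay under H3K27ac in all 4 libraries, with 77.7 and 76.1% of it and 5 kb on each side covered in NC1235 and 82.1 and 78.5% in Si1235. The corresponding NC1235-only regions lay in the pseudogenes LOC100288637, SMG1P7 and CYP4Z2P. These 6 regions were between 550 and 1249 bp wide.

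A fit over all regions called no difference in H3K36me3 cover. With limma on percent cover, 0 of 48407 regions (0%) and 0 of the 1515 passed an adjusted p of 0.05. The cover comes from the same lists that chose the regions. All limma p-values and shares for H3K36me3 cover are therefore a description and cannot serve as a test of the arms. At an unadjusted p under 0.05 there were 206 of the 1515 (13.6%) against 11.1% of all. The arms did not overlap with Si1235 higher in 346 (22.8%) against 20.8% of all, and with Si1235 lower in 197 (13%) against 18.3%. The median difference was 4.13 points against 0.74 over all regions. The largest differences were a region fully absent from NC1235 at chr9:94537019-94537578, with 97.9 and 99.3% covered in Si1235, and a region at chr16:70237982-70239022 in SMG1P7 absent from Si1235, with 94.6 and 97.0% covered in NC1235 (both limma adjusted p = 0.450). Also absent from NC1235 were chr3:153179621-153179937, with 100.0 and 92.7% covered in Si1235, and chr18:3364373-3365102, with 95.5 and 96.6%. The chr3 region lay 652 bp from the lncRNA gene LOC105374164, which had no strand, and 8993 bp past the small GTPase gene RAP2B. Past MAML1, a Notch co-activator gene, chr5:179777292-179778078 had 96.1 and 95.3% in NC1235 and 0 in Si1235. Past RPS9, a ribosomal protein gene, chr19:54208848-54209217 had 90.5 and 100.0% in NC1235 and 0 in Si1235. Its NC1235 peaks had −log10 q values of 3.33 and 2.31, near the lowest in any list, 2.00. A region kept by the 2 lists of 1 arm is made of their peaks alone and has 0 cover in the other arm. Large differences are therefore set by the rule for such regions, and absent means only that no peak was called. Without Si1235 replicate 2 the fit called 177 regions higher (11.7%, against 7.34% of all), and without Si1235 replicate 1 it called 82 (5.41%, against 3.30%). All of these had 0 cover in both NC1235 lists, where no spread was left between the remaining replicates.

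Flanking H3K27ac differed at 13 regions. Of 12413 regions tested for H3K27ac cover of the region and 5 kb on each side, 286 (2.30%) passed in limma, and of 351 regions outside genes 13 passed (3.70%), 6 higher in Si1235 (1.71%, against 0.862% of all) and 7 lower (1.99%, against 1.44%). At an unadjusted p under 0.05 there were 86 of the 351 (24.5%) against 22.3% of all. The arms did not overlap with Si1235 higher in 109 (31.1%) against 31.4%, and with Si1235 lower in 73 (20.8%) against 22.9%. The 13 called regions lay in 11 units, so some windows share peaks. Past the cation channel gene TRPM4, 2 regions with nearly the same window had 10.6 and 10.0% covered in NC1235 and 34.2 and 28.8% in Si1235, a difference of 21.19 points at chr19:49213036-49213583 (SE 2.03, limma adjusted p = 0.0384). In the unit near PUM3, chr9:2767599-2780732 had 20.5 and 19.8% in NC1235 and 10.8 and 11.03% in Si1235 (difference −9.21 points, SE 0.73, limma adjusted p = 0.0332). There H3K36me3 cover itself was 11037 and 11559 bp in NC1235 and 12110 and 12490 bp in Si1235, a difference of 7.63 points that did not pass (limma adjusted p = 0.644). Another called region of this unit, chr9:2781961-2784192, is named after its values were seen. Its flanking H3K27ac was also lower in Si1235 (difference −11.0 points). Its H3K36me3 cover was lower in Si1235 as well, at 708 and 932 bp against 1993 and 1519 bp in NC1235. Near FAM110C, chr2:37122-37675 had 38.5 and 36.6% in NC1235 against 23.8 and 24.5% in Si1235, and near EIF4EBP1, which encodes a repressor of translation, chr8:38065345-38066183 had 17.8 and 16.4% against 6.83 and 4.24%. Past the gene of the protein modifier SUMO2, chr17:75161324-75161978 had 4.81 and 6.27% in NC1235 and 14.5 and 15.5% in Si1235. A further pair is named here after its values were seen. Past DNAJB9, an endoplasmic reticulum co-chaperone gene, flanking H3K27ac fell from 10.97 and 13.4% to 0 and 2.35%, and past TRAF2, an adaptor of tumour necrosis factor receptors, it rose from 2.70 and 3.94% to 9.69 and 10.1%. No call was left when any 1 of the 4 H3K27ac libraries was left out. The NC1235 H3K27ac lists also differ in making, since whole-number pileups could be solved for 0.733 and 12.7% of their weak peaks and for 100% in the Si1235 lists, so scaling and arm cannot be told apart there.

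Flanking H2AZ gave no call. Limma passed 0 of 7376 regions (0%) and 0 of the 225 outside genes, with 17 of the 225 (7.56%) and 5.36% of all at an unadjusted p under 0.05. The arms did not overlap with Si1235 higher in 37 (16.4%) against 23.4% of all, and with Si1235 lower in 33 (14.7%) against 9.82%.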

How the data were processed

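The labels list 17 samples of HCC1954 cells, of which 15 have a peak list used here. Peak positions, fold enrichment (a ratio over background) and −log10 p and q values per peak are as the authors deposited them, called per library, and the lowest −log10 q in any list was 2.00. The submitters' processing notes name Bowtie2 2.2.9, MACS2, HTSeq 2.0.3, DESeq2 1.22.2 and the build hg38, with no role for each. The control used for peak calling and the treatment of multiply mapped reads are not given in the sources used here.

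Here, peaks on the 22 autosomes were merged and set against the RefSeq gene table (GRCh38.p14), with any shared base counting as overlap. Gene strands came from RefSeq promoter records, which covered 71.1% of coding and lncRNA genes. Percent cover of regions, or of regions with 5 kb on each side, was fitted over all regions with a mean cover of at least 5% in limma 3.58.1 (R 4.3.3) with a trend and Benjamini-Hochberg adjustment at 0.05, 2 libraries per arm, and totals per library are given without a test. Fold enrichment was used only for ranks within a list, as the authors' value. Peak lists hold no read totals, so depth is unknown. The scripts (Python 3.11.15, pandas 2.3.3) were tested on simulated data. Named regions were those of greatest cover among all regions, per position class and per unit, of highest rank, of largest arm difference, called by flank, and present in 1 arm only. Regions, gene lists and markers were chosen with earlier results of these data known. Alternatives were the list number, q minimum, joining distance, gene criterion, equal numbers of top peaks, window, normalization, cover filter, a replicate block and leaving out each library. No genome was used, so no sequence of the regions is given.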

Additional observations from a re-analysis of the deposited data

Results flagged for a closer look

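On chromosome X, which the rule leaves out, the same steps gave 69 regions outside genes beside 1328 that overlapped genes, and 32 of the 69 had a peak in all 4 lists. A peak was present in 60 and 50 of them in NC1235 and in 59 and 52 in Si1235, so the arms overlapped.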

How the results depend on the processing

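Of the alternative values, 70 stayed within the limits set for them, 29 moved beyond them and 2 changed sign. The number of regions was 536 with a peak required in all 4 lists, 853 with a −log10 q of at least 5, 672 with peaks under 1 kb apart joined and 663 at 5 kb or more from genes. The 3′ share was 44.0, 44.1 and 61.5% with all 4 lists, the q minimum and no overlap with any RefSeq gene, and the share beyond 50 kb 7.46, 6.80 and 2.27%. H3K27ac within 5 kb was 32.3% with all 4 lists and 32.5% with no RefSeq gene, H3K9ac 31.5% with all 4 lists. Windows of 1 and 10 kb gave 9.11 and 44.5% for H3K27ac, 1.78 and 35.8% for H2AZ and 9.57 and 45.3% for H3K9ac. Regions in the Si1235 lists only numbered 86 with the q minimum and 109 with equal numbers of top peaks. Leaving out 1 library moved the log2 ratio of regions with a peak between 0.00 and 0.42 and that of covered length between −0.15 and 0.54, with −0.15 without NC1235 replicate 2 and −0.09 without Si1235 replicate 1. Calls of higher H3K36me3 ranged from 0 to 177, with 82 without Si1235 replicate 1 and 177 without Si1235 replicate 2. Flanking H3K27ac calls were 0 without any 1 library and 24 after quantile normalization. The replicate numbers are not known to pair libraries: deviations of same-numbered H3K36me3, H3K27ac and H2AZ libraries correlated at 0.03, 0.09 and 0.44 over 2 pairs. With a replicate block, 6 H3K27ac calls, 0 H3K36me3 calls in either direction and 0 H2AZ calls were made. The share of all regions called for H3K27ac with quantile normalization or a replicate block is not given. The counts of 24 and 6 are thus no result about the regions outside genes. Values within each replicate number were added after seeing the data. The causes of these shifts were not tested. Limits are 2 libraries per arm, unknown depth, and windows that share peaks.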

Other observations

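The regions were unevenly spread over chromosomes. Chromosome 7 held 176 of them, or 8.08 per 100 genic regions, chromosome 16 held 111 (5.89), chromosome 1 held 177 (3.65) and chromosome 21 held 4 (0.658). The richest 5 Mb bin, 70 to 75 Mb of chromosome 16, held 47 regions, 3.10% of all against 0.316% of genic regions, and 2 bins of chromosome 7, at 125 and 65 Mb, held 36 and 34.

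Among other gene groups, 20 of 505 genes with a ZNF symbol, which encode zinc finger proteins, had a region within 10 kb, with 27 regions in all. Of 80 cytosolic ribosomal protein genes 5 did (RPS9, RPL11, RPS21, RPL21 and RPL30), of 46 interferon-induced genes 2 did (ISG15 and HERC5), and of 21 genes of the HER2 amplicon none did. Over all coding genes the share was 5.52%. These lists were described by their counts and no difference between them was tested.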
